A study of Homo sapiens with 33 samples.

Results

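The HOX cluster genes described here are 38 of the 39 rows of the count table whose symbol is HOXA, HOXB, HOXC or HOXD followed by a number and nothing else, out of 56470 gene symbols in all. The rule reads the symbol and no measured value. HOXA has 10 members on chromosome 7 (chr7:27139973-27239710, GRCh37), HOXB 10 on chromosome 17 (chr17:46605888-46806112), HOXC 9 on chromosome 12 (chr12:54332615-54449814) and HOXD 9 on chromosome 2 (chr2:176957449-177055635).

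RNA was sequenced from 3 established head and neck squamous carcinoma lines, called here SCC1 (UM-SCC-1), SCC6 (UM-SCC-6) and SCC25. Each was grown with PBS as the untreated control or with 100 nM cetuximab, a therapeutic antibody that blocks the epidermal growth factor receptor, with daily medium changes. The PBS groups held 6 libraries per line, of days 0 to 5. The cetuximab groups held 5 libraries per line, of days 1 to 5 in SCC1 and SCC25, while SCC6 had 2 libraries labelled day 2 (2a and 2b) and none labelled day 1. Each group was 1 line with a single library per day otherwise, so days served as the replicates and the p-values measure only the spread between these libraries. The labels give medium with hydrocortisone for SCC1 and SCC25, at a different concentration in each, and high-glucose medium with added amino acids for SCC6, whereas the methods of the study name 1 medium for all lines. If the labels hold, line and medium cannot be told apart.

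HOX genes encode homeodomain transcription factors that give cells their position along the head-to-tail axis. Within a cluster the genes lie in the order of the regions they pattern, from paralog group 1 at the anterior end to group 13 at the posterior end, and adult cells often keep the HOX code of their site of origin. Polycomb complexes hold silent members under repressive histone marks, Trithorax complexes and retinoic acid receptors help to open them, and PBX and MEIS proteins bind DNA together with HOX proteins.

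Library totals ran from 28508539 to 80727185 estimated counts, so that 3 counts, the limit a count of 0 allows, stood for 0.0401 to 0.116 CPM (counts scaled to a common library size). These limits cover counting error only. All 12 squamous epithelial markers examined averaged at least 1 CPM in every group, although the basal keratins KRT5 and KRT14 averaged 2.89 and 5.37 CPM in SCC6 under PBS. Of 7 endothelial and blood markers, 1 or 2 averaged 1 CPM or more in a group and 3 or 4 averaged under 0.1 CPM, among them CD3E of T cells and HBB of red cells in all groups. Their summed CPM ran from 18.03 to 49.2 in SCC1, from 16.8 to 32.3 in SCC6 and from 167 to 234 in SCC25 under PBS, nearly all of it CD68 (32.0, 19.7 and 196 CPM on average). Of 12 fibroblast markers, 3 averaged 1 CPM or more in SCC1, 1 in SCC6 and 9 in SCC25 under PBS, and 5, 9 and 2 averaged under 0.1 CPM.

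The sequences before 3 transcription starts are shown because these members carry differences described next, HOXD13 and HOXD10 between lines and HOXC4 under cetuximab. RefSeq promoter windows on build GRCh38.p14 were given for 20 of the 38 members. Each line holds the 250 bases before a start, 5′ to 3′ on the plus strand, with capitals at matches, on either strand, to the letters TATAAA of a core promoter element, to the letters CCAAT of another promoter element or to TGATNNAT, a form of site that PBX and HOX proteins share.
HOXD13: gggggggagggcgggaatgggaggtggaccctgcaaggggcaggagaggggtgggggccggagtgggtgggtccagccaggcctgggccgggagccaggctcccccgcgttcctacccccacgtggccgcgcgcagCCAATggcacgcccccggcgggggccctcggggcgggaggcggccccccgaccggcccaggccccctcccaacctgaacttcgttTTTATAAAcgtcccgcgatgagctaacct
HOXD10: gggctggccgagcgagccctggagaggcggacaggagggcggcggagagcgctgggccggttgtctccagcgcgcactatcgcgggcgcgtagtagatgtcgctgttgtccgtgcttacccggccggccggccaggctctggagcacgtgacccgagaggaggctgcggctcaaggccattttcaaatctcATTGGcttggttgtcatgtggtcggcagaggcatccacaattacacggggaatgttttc
HOXC4: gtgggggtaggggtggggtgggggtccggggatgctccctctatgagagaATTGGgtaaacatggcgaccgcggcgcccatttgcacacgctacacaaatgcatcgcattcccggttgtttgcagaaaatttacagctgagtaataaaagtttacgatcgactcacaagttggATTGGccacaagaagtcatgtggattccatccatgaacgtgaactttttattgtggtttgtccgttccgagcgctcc
The windows lie at chr2:176092471-176092720 for HOXD13, chr2:176116528-176116777 for HOXD10 and chr12:54016638-54016887 for HOXC4, and RefSeq gives the last for HOXC5 as well. In HOXD13, matches to TATAAA begin 29 and 27 bases before the start, on opposite strands and overlapping, and a match to CCAAT begins 114 bases before it. HOXD10 holds 1 match, to CCAAT, 59 bases before the start, and HOXC4 holds matches to CCAAT 200 and 77 bases before it. CCAAT was found in 18 of 27 HOX windows (66.7%) and in 32% of 35114 windows of all genes, TATAAA in 5 (18.5% against 10.7%) and TGATNNAT in 3 (11.1% against 6.47%). The 27 windows come from 20 members and are not separate ones, since 7 belong to HOXA3, 2 to HOXA10 and HOXC4 and HOXC5 share 1. Counted by member, 17 of 20 held CCAAT, 4 TATAAA and 3 TGATNNAT in some window. The shares given for all genes are by window, so they are no background for these counts by member. The median ratio of observed to expected CpG was 0.888 in the HOX windows and 0.558 in all windows.

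The lines differed in which members were on. A member is called expressed here when every library of a group held at least 1 CPM, and near zero when every library held under 0.1 CPM. Under PBS 24 members were expressed in SCC1, 14 in SCC6 and 24 in SCC25. The numbers near zero were 4, 13 and 1. The shares of all genes that met these cuts were not counted, here or for later counts by state. In SCC6 libraries under PBS the limit for a gene without counts ran from 0.0797 to 0.116 CPM, past the cut of 0.1 CPM. Under PBS this limit reached at most 0.0763 CPM in SCC1 and 0.0712 CPM in SCC25, so near-zero calls rest on less depth in SCC6. A core of 12 members was expressed in all lines (HOXA3, HOXA5, HOXA7, HOXA9, HOXA10, HOXA11, HOXB7, HOXC4, HOXC6, HOXC10, HOXC11 and HOXC13), and HOXB1 was near zero in all. The 4 members expressed in one line and near zero in another were HOXB3, HOXD9, HOXD11 and HOXD13, each of them near zero in SCC6.

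**Figure D1:**
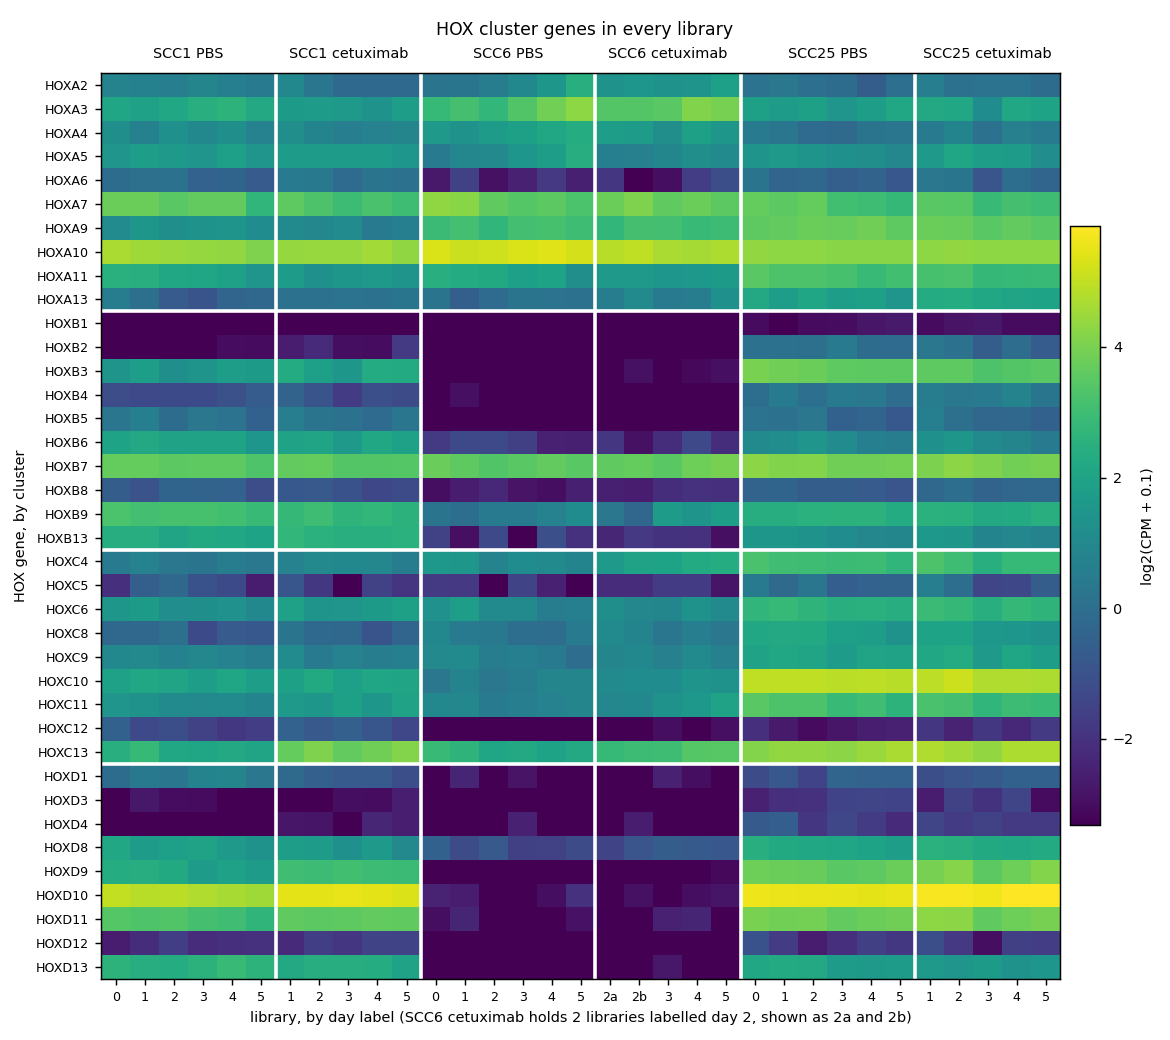
Heat map of log2(CPM + 0.1) for the 38 HOX genes (rows, by cluster) in the 33 libraries (columns, by line, treatment and day). HOXB1 to HOXB5 and the HOXD genes other than HOXD8 are at or near the bottom of the scale in the SCC6 columns.

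By position, 13 of 16 posterior members (paralog groups 9 to 13) were expressed in SCC1, 14 in SCC25 and 6 in SCC6. Of 11 anterior members (groups 1 to 4) the numbers were 5, 3 and 4, in the same order of lines, and of 11 central members (groups 5 to 8) they were 6, 7 and 4. Per kilobase of transcript the highest HOX level was that of HOXD10 in SCC1 (15.5 ± 1.87 CPM per kb, SD, n = 6) and SCC25 (26.1 ± 0.921 CPM per kb), and that of HOXA10 in SCC6 (15.2 ± 1.14 CPM per kb).

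Lines were compared over the 18 PBS libraries by the quasi-likelihood test of edgeR, with p-values adjusted over all genes by the method of Benjamini and Hochberg, and 33 members had enough counts to be tested. In SCC1 against SCC6, 23 members differed, where 69.0% of all genes did. Of these, 17 were higher and 6 lower in SCC1 (all genes: 34.7% and 34.3%). In SCC1 against SCC25, 25 differed (all genes: 68.9%), 7 higher and 18 lower in SCC1 (all genes: 33.7% and 35.2%). In SCC6 against SCC25, 31 differed (all genes: 72.0%), 4 higher and 27 lower in SCC6 (all genes: 35.0% and 37.0%). The median log2 difference over the tested members was 1.371 in SCC1 against SCC6, -0.676 in SCC1 against SCC25 and -2.427 in SCC6 against SCC25, and over all genes it was 0.013, -0.007 and -0.024. The pairs share libraries, so their counts are not independent of each other. In bulk RNA, fewer cells that express a gene and less RNA per cell cannot be told apart.

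The HOXD cluster was close to silent in SCC6. Its 9 members summed to 0.489 ± 0.167 CPM there (range 0.266 to 0.731), to 51.5 ± 5.73 CPM in SCC1 (42.5 to 59.2) and to 83.2 ± 4.95 CPM in SCC25 (77.8 to 90.5). This was 0.429%, 33.3% and 30.7% of the summed CPM of all 38 members.

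HOXD10, a posterior gene of limb and spinal cord patterning, was at 32.4, 28.7, 29.8, 27.1, 24.7 and 23.3 CPM in SCC1 from day 0 to day 5 under PBS. In SCC25 it was at 49.3, 47.2, 46.7, 45.5, 44.5 and 46.0 CPM, and the 6 SCC6 libraries held 10 counts in all. The 3 lines did not overlap. The log2 difference was -0.75 ± 0.12, adjusted p = 1.75e-05 for SCC1 against SCC25 and -9.68 ± 0.23, adjusted p = 2.76e-18 for SCC6 against SCC25 (estimate ± SE).

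HOXD9 and HOXD13, the latter a gene of digit formation, had no count in any PBS library of SCC6. HOXD9 ranged from 3.14 to 5.21 CPM in SCC1 and from 11.1 to 14.2 CPM in SCC25. Set against 3 counts over the 6 SCC6 libraries (0.0160 CPM), it was at least 259-fold higher in SCC1 and at least 807-fold higher in SCC25. HOXD13 ranged from 5.03 to 7.19 CPM in SCC1 and from 3.00 to 4.76 CPM in SCC25, at least 366-fold and 242-fold higher than that limit. SCC1 lay above SCC25 in HOXD13 without overlap (0.59 ± 0.15, adjusted p = 0.00249), the reverse of HOXD9 (-1.64 ± 0.15, adjusted p = 6.2e-08).

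HOXD11 ranged from 6.37 to 10.6 CPM in SCC1 and from 12.5 to 15.8 CPM in SCC25, with 5 counts in SCC6. HOXD1, at the anterior end, ranged from 0.838 to 1.71 CPM in SCC1 and from 0.257 to 0.688 CPM in SCC25 (1.32 ± 0.29, adjusted p = 0.000441), with 4 counts in SCC6. HOXD1 thus differed between SCC1 and SCC25 in the opposite direction to HOXD9, HOXD10 and HOXD11 under PBS. Between the cetuximab libraries neither HOXD1 (0.11, adjusted p = 0.778) nor HOXD11 (-0.45, adjusted p = 0.0757) passed. HOXD8 had the most RNA of the cluster in SCC6, at 0.374 ± 0.151 CPM, against 3.39 ± 0.670 in SCC1 and 4.30 ± 0.7002 in SCC25.

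The HOXB cluster was split in SCC6. HOXB1 to HOXB5 held 1 count in all over its 6 PBS libraries, while HOXB7, a central gene, had a mean close to that of SCC1. HOXB7 was at 13.3, 11.8, 10.2, 11.2, 12.3 and 11.3 CPM in SCC6 and at 12.8, 12.7, 11.5, 11.9, 11.7 and 9.91 CPM in SCC1. The ranges overlapped, and the log2 difference of SCC1 against SCC6 was 0.00 ± 0.10, adjusted p = 0.988. SCC25 was higher, at 14.4 to 18.9 CPM (-0.48 ± 0.09, adjusted p = 0.00014 for SCC1 against SCC25).

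HOXB3, an anterior gene of the hindbrain and neck, was at 2.59, 3.46, 2.29, 2.58, 3.35 and 3.10 CPM in SCC1 and at 15.8, 14.4, 13.8, 11.7, 11.5 and 11.4 CPM in SCC25. These did not overlap (-2.18 ± 0.14, adjusted p = 1e-09). With no count in SCC6, HOXB3 was at least 181-fold higher in SCC1 and at least 818-fold higher in SCC25 than the limit of 3 counts.

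HOXB2, which patterns the hindbrain, ranged from 0.822 to 1.28 CPM in SCC25, while SCC1 held 2 counts and SCC6 none. HOXB4 ranged from 0.862 to 1.30 CPM in SCC25 and from 0.305 to 0.538 CPM in SCC1, with 1 count in SCC6. HOXB5 ranged from 0.624 to 1.45 CPM in SCC1 and from 0.481 to 1.16 CPM in SCC25, which overlapped, and with no count in SCC6 it was at least 64.7-fold higher in SCC1.

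At the posterior end the order of lines was another one. HOXB9 averaged 8.58 ± 0.704 CPM in SCC1, 5.43 ± 0.389 in SCC25 and 1.36 ± 0.428 in SCC6, and HOXB13 averaged 4.54 ± 0.553, 2.29 ± 0.475 and 0.186 ± 0.152 CPM. HOXB6 followed the same order, at 3.75 ± 0.594, 1.95 ± 0.480 and 0.201 ± 0.106 CPM. These 3 genes differed in all 3 pairs of lines under PBS, and between the cetuximab libraries HOXB9 did not pass in SCC1 against SCC25 (0.34, adjusted p = 0.297).

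**Figure D2:**
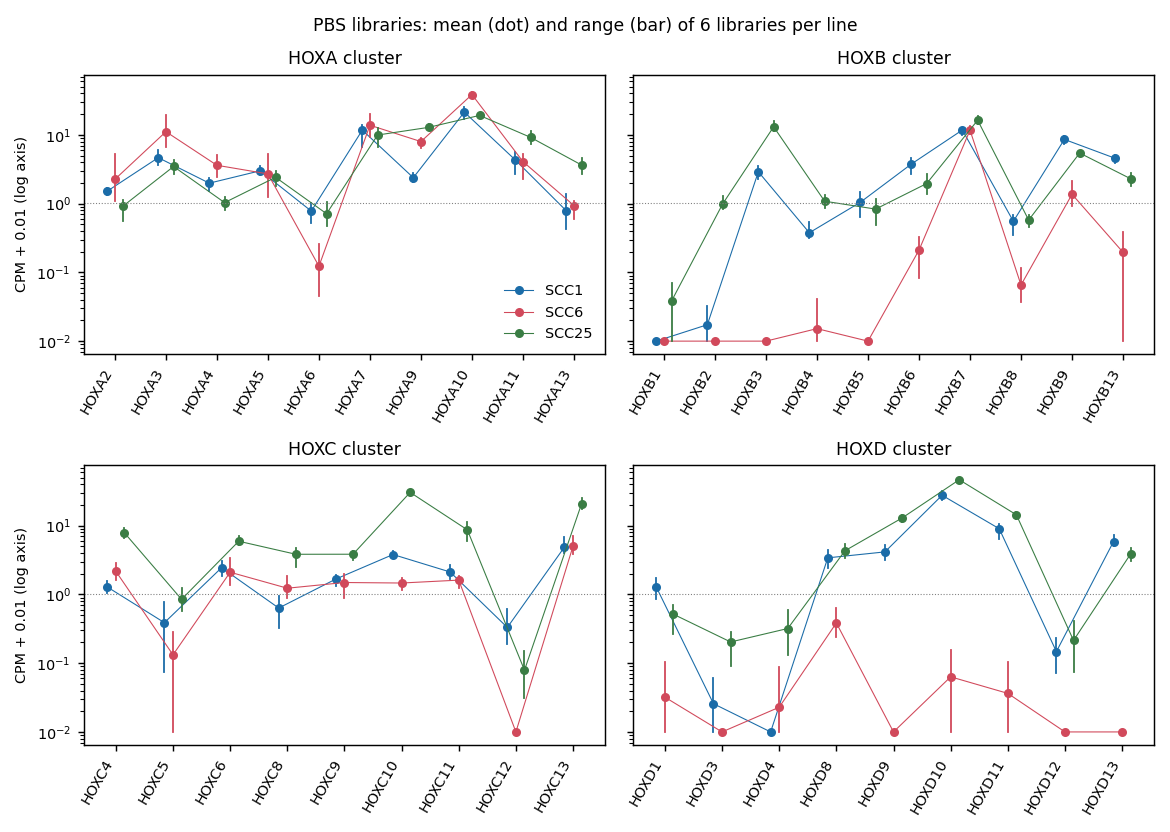
CPM + 0.01 on a log axis for each HOX gene under PBS, with 1 panel per cluster and genes in paralog order; dots are means and bars the range of 6 libraries per line, and the dotted line marks 1 CPM. SCC6 drops along HOXD and HOXB1 to HOXB5 and meets SCC1 at HOXB7.

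The HOXC cluster was highest in SCC25. It summed to 82.4 ± 4.31 CPM there, 17.5 ± 2.78 in SCC1 and 15.2 ± 3.16 in SCC6, and all 8 HOXC members tested were lower in SCC1 and in SCC6 than in SCC25, although 4 of the 8 calls of SCC6 against SCC25 were lost with flow cell as a covariate, as given below. HOXC10, a posterior gene, was at 31.1, 31.4, 31.3, 29.4, 30.7 and 29.0 CPM in SCC25, at 3.70, 4.27, 4.00, 3.38, 4.09 and 3.33 CPM in SCC1 and at 1.152, 1.62, 1.14, 1.39, 1.70 and 1.72 CPM in SCC6. The 3 lines did not overlap, and the log2 difference was -3.01 ± 0.11, adjusted p = 1.73e-15 for SCC1 against SCC25 and 1.37 ± 0.11, adjusted p = 9.91e-10 for SCC1 against SCC6.

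HOXC13, a regulator of hair and nail keratins, ranged from 17.7 to 25.6 CPM in SCC25, from 3.96 to 6.89 in SCC1 and from 3.85 to 7.11 in SCC6. SCC1 and SCC6 overlapped (-0.06 ± 0.16, adjusted p = 0.769), and both lay below SCC25 (SCC1 against SCC25: -2.10 ± 0.16, adjusted p = 4.09e-10). HOXC4 averaged 7.86 ± 0.842 CPM in SCC25, 2.16 ± 0.535 in SCC6 and 1.27 ± 0.190 in SCC1. For HOXC6, HOXC8, HOXC9 and HOXC11 the log2 difference of SCC1 against SCC25 lay between -2.62 and -1.21. HOXC12 averaged 0.321 CPM in SCC1 and 0.0692 in SCC25, had no PBS count in SCC6 and was not tested between lines.

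The HOXA cluster was on in all lines and made up 74.5% of the summed CPM of all 38 members in SCC6, 33.8% in SCC1 and 23.3% in SCC25. HOXA10, a posterior gene, was at 39.9, 34.2, 36.4, 40.2, 42.3 and 38.2 CPM in SCC6, at 25.3, 23.1, 21.9, 20.8, 20.6 and 16.8 CPM in SCC1 and at 20.5, 19.6, 19.6, 18.7, 18.3 and 18.3 CPM in SCC25. SCC6 lay above the others without overlap (SCC1 against SCC6: -0.86 ± 0.09, adjusted p = 2.03e-08), and SCC1 and SCC25 overlapped (0.16 ± 0.09, adjusted p = 0.111).

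The anterior members HOXA2, HOXA3 and HOXA4 were all higher in SCC6 than in SCC25, by log2 differences of 1.31 to 1.81. Of the posterior ones, HOXA13, a gene of limb and urogenital patterning, averaged 3.63 ± 0.659 CPM in SCC25, 0.926 ± 0.184 in SCC6 and 0.776 ± 0.334 in SCC1, and HOXA11 averaged 9.18 ± 1.39, 4.07 ± 1.12 and 4.30 ± 1.08 CPM. HOXA9 averaged 2.37 ± 0.310 CPM in SCC1, 7.97 ± 0.889 in SCC6 and 12.8 ± 1.03 in SCC25, with no overlap. HOXA5 and HOXA7 passed the test in no pair. HOXA7 ranged from 6.54 to 13.8 CPM in SCC1, from 9.42 to 20.2 in SCC6 and from 6.76 to 12.6 in SCC25.

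**Figure D3:**
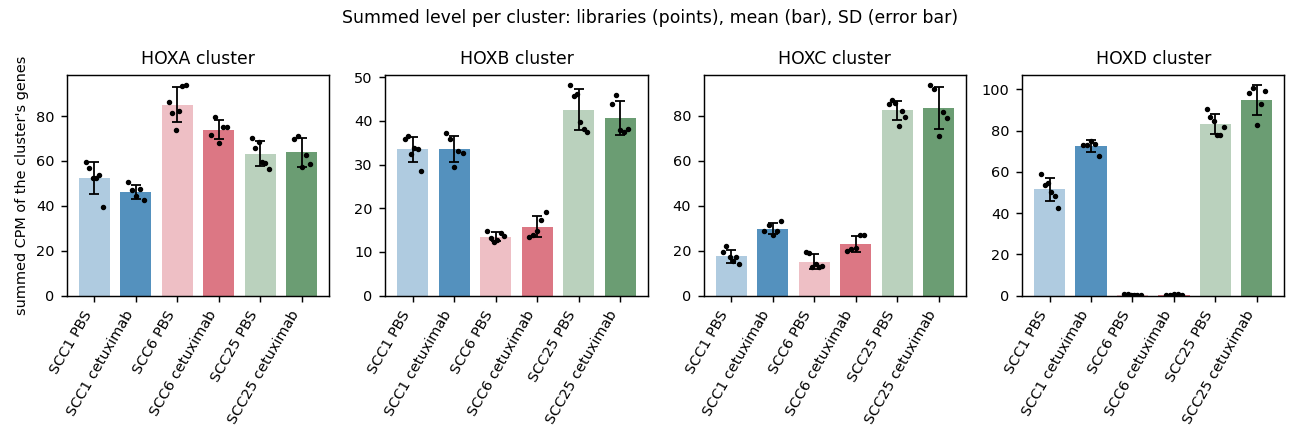
Summed CPM of the genes of each cluster in the 6 groups; points are libraries, bars the mean and error bars the SD (n = 6 for PBS, n = 5 for cetuximab). HOXD stays near 0 in SCC6 under both treatments, and HOXC is highest in SCC25.

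Flow cell followed line closely. With flow cell as a covariate over all 33 libraries, 24 members differed in SCC1 against SCC6 (all genes: 50.4%), 26 in SCC1 against SCC25 (all genes: 53.6%) and 24 in SCC6 against SCC25 (all genes: 42.1%). That fit tested 21628 genes, where the fit over PBS libraries tested 19746, so the members tested need not be the same ones. The members called were not all the same either, since some calls were lost and others gained. In SCC1 against SCC6 the calls of HOXA3, HOXA4, HOXC5 and HOXC11 were lost. In SCC1 against SCC25 those of HOXD1 (0.80, adjusted p = 0.23), HOXD11 (-0.12, adjusted p = 0.692), HOXD13 (0.62, adjusted p = 0.0624), HOXB7 and HOXC5 were lost. In SCC6 against SCC25 those of HOXC6 (-0.36, adjusted p = 0.474), HOXC8 (-0.30, adjusted p = 0.749), HOXC9 (-0.19, adjusted p = 0.709), HOXC5, HOXA2, HOXA6, HOXA9, HOXA11 and HOXB7 were lost. In that fit the signs of HOXC5 in all 3 pairs, of HOXC11 in SCC1 against SCC6, and of HOXA11 and HOXB7 in SCC6 against SCC25 turned, none of them passing the test.

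The noncoding RNAs of the clusters were read beside the coding members. HAGLR, in the HOXD cluster, averaged 0.108 CPM in SCC6, 10.9 in SCC1 and 8.21 in SCC25. HOTAIRM1, in the HOXA cluster, averaged 13.7, 6.38 and 11.1 CPM. Of 14 such RNAs tested, 11 differed in SCC1 against SCC6 (7 higher and 4 lower in SCC1; all genes: 69.0%), 12 in SCC1 against SCC25 (3 and 9; all genes: 68.9%) and 11 in SCC6 against SCC25 (1 higher and 10 lower in SCC6; all genes: 72.0%). Of 8 flanking genes tested, 5, 7 and 7 differed in the same pairs, against the same shares of all genes.

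All 19 Polycomb genes and all 12 Trithorax and demethylase genes listed averaged at least 1 CPM in every group. The Polycomb methyltransferase gene EZH2 averaged 52.4, 69.3 and 25.7 CPM in SCC1, SCC6 and SCC25 under PBS. CDX2, a homeobox gene upstream of posterior HOX genes, averaged 3.29 CPM in SCC25 and was under 0.1 CPM in SCC1 and SCC6.

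Under cetuximab no member that was near zero under PBS became expressed in the same line, and 7 members moved between expressed, low and near zero in some line. HOXD summed to 0.546 ± 0.181 CPM in the 5 cetuximab libraries of SCC6. Treatment was tested in days 1 to 5 of each line, 5 libraries against 5.

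In SCC1, 15 of 33 members tested changed, where 44.5% of all genes did. Of these, 10 rose and 5 fell (all genes: 22.5% and 22.0%), and the median log2 change was 0.071 (all genes: 0.021). The members that rose were HOXC4, HOXC11, HOXC12, HOXC13, HOXD9, HOXD10, HOXD11, HOXB3, HOXB13 and HOXA13, and those that fell were HOXA3, HOXA9, HOXA11, HOXB9 and HOXD1. The share called was close to that of all genes.

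**Figure D4:**
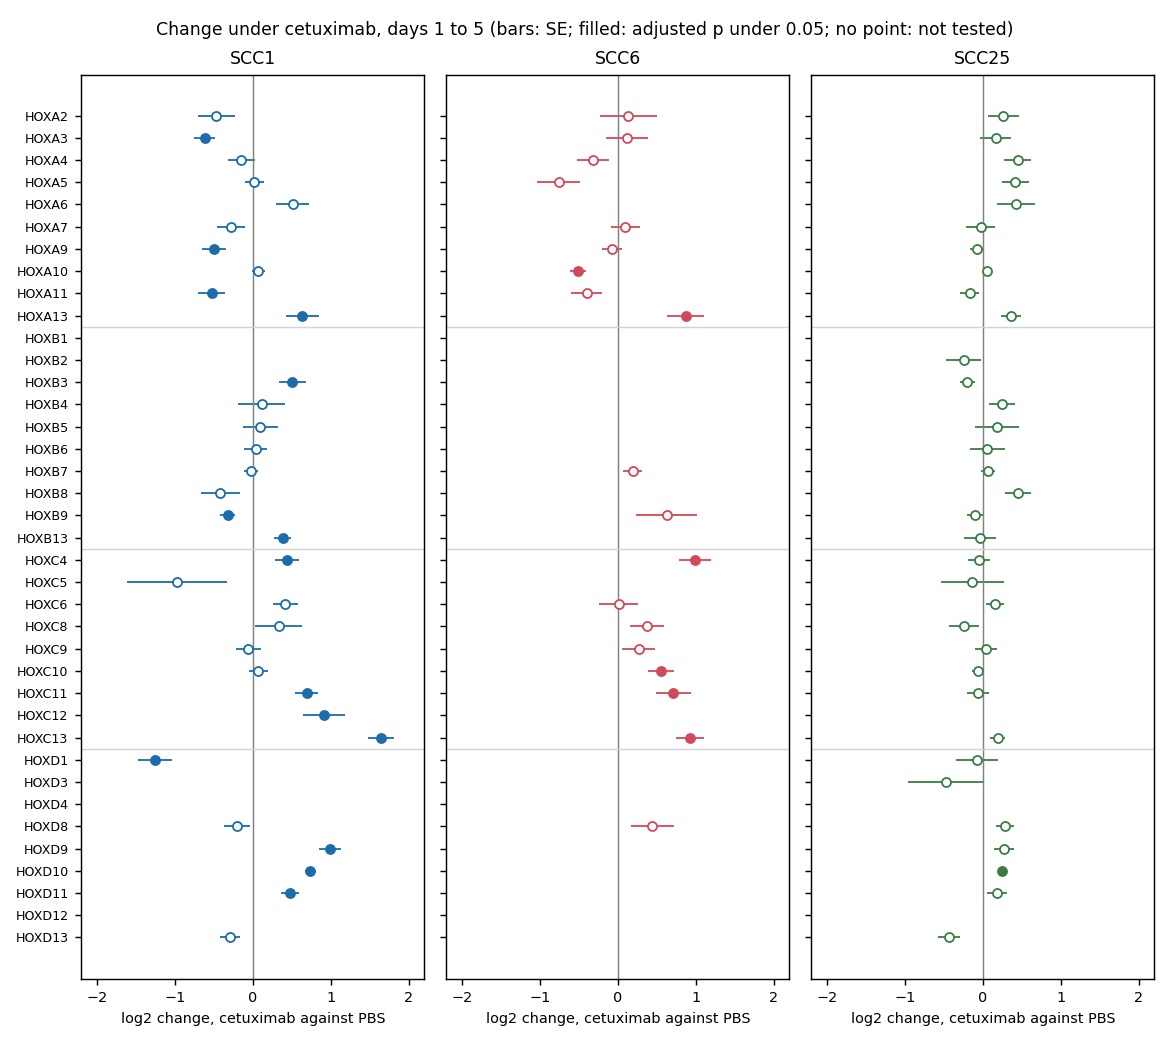
Log2 change under cetuximab against PBS with its SE for each tested HOX gene, 1 panel per line; filled points passed an adjusted p of 0.05. Filled points number 15 in SCC1, 6 in SCC6 and 1 in SCC25 (HOXD10).

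HOXC13 was at 6.89, 4.33, 4.05, 4.59 and 3.96 CPM under PBS in SCC1 and at 12.6, 16.8, 12.3, 14.6 and 17.8 CPM under cetuximab, on days 1 to 5. Each treated library lay above each control, a log2 change of 1.65 ± 0.17, adjusted p = 8e-06. HOXD10 was at 28.7, 29.8, 27.1, 24.7 and 23.3 CPM under PBS and at 44.05, 44.8, 46.8, 44.7 and 41.4 CPM under cetuximab (0.74 ± 0.07, adjusted p = 5.65e-06). HOXD9 was at 5.21, 4.67, 3.19, 3.69 and 3.14 CPM under PBS and at 8.01, 7.66, 8.31, 7.70 and 7.58 CPM under cetuximab (0.99 ± 0.14, adjusted p = 9.2e-05). The treated and control ranges were apart for all 3 genes. These genes were named for their called changes, and ranges that lie apart were not counted over all genes. HOXD11 went from 8.71 ± 1.57 to 12.01 ± 0.261 CPM (0.47 ± 0.12, adjusted p = 0.00472).

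HOXD1, at the other end of the HOXD cluster, was at 1.195, 1.12, 1.60, 1.71 and 1.14 CPM under PBS and at 0.794, 0.606, 0.527, 0.515 and 0.361 CPM under cetuximab. It fell in SCC1 without overlap (-1.25 ± 0.22, adjusted p = 0.000397). HOXA3 went from 4.75 ± 0.895 to 3.07 ± 0.343 CPM (-0.62 ± 0.14, adjusted p = 0.00265). HOXA11 ranged from 2.65 to 5.26 CPM under PBS and from 2.31 to 3.22 CPM under cetuximab, with overlap (-0.52 ± 0.17, adjusted p = 0.0237).

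HOXC11 went from 2.00 ± 0.314 to 3.20 ± 0.476 CPM (0.69 ± 0.15, adjusted p = 0.00183). HOXC12 rose at a low level, from 0.180 to 0.359 CPM under PBS to 0.289 to 0.635 CPM under cetuximab (0.92 ± 0.27, adjusted p = 0.0147). Its PBS library of day 0, outside this test, held 0.613 CPM. HOXA13 went from 0.661 ± 0.202 to 1.02 ± 0.0423 CPM (0.63 ± 0.21, adjusted p = 0.0243), and its PBS library of day 0, outside this test, held 1.35 CPM. With day 0 added to PBS, neither HOXC12 nor HOXA13 passed. The other members that rose had log2 changes of 0.51 ± 0.18 (HOXB3), 0.44 ± 0.16 (HOXC4) and 0.39 ± 0.11 (HOXB13), and HOXA9 and HOXB9 had changes of -0.50 and -0.32. With day as a block, HOXC4 no longer passed (0.44 ± 0.16, adjusted p = 0.0508), while HOXA6 (0.52 ± 0.17, adjusted p = 0.0291) and HOXC6 (0.41 ± 0.14, adjusted p = 0.0353) did, among 47.1% of all genes.

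All cetuximab libraries of SCC1 shared a flow cell with 1 PBS library of days 1 to 5, that of day 5. A fit with flow cell as a covariate therefore takes the change in SCC1 from that 1 control library. Among the PBS libraries flow cell also ran with day, so the 2 cannot be told apart there. When flow cell was a covariate 7 members passed, where 23.2% of all genes did. These were HOXC13 (1.92 ± 0.32, adjusted p = 0.00211), HOXD10 (0.94 ± 0.12, adjusted p = 0.000326), HOXD9, HOXD11, HOXC11, HOXB13 and HOXA10 (0.38 ± 0.12, adjusted p = 0.0383), the last not called without it. HOXD1 did not pass (adjusted p = 0.0568), and HOXA11 turned sign (0.09 ± 0.24, adjusted p = 0.816).

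In SCC6, 6 of 19 members tested changed, where 30.1% of all genes did. Of these, 5 rose and 1 fell (all genes: 15.5% and 14.5%), and the median log2 change was 0.192 (all genes: 0.004). HOXC4, HOXC10, HOXC11, HOXC13 and HOXA13 rose, and HOXA10 fell.

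HOXC4 was at 2.77, 1.63, 2.12, 1.94 and 1.65 CPM under PBS on days 1 to 5 and at 2.94, 3.78, 3.85, 4.73 and 5.06 CPM in cetuximab libraries 2a, 2b, 3, 4 and 5 of SCC6. HOXC13 was at 6.11, 4.05, 4.55, 3.85 and 4.54 CPM under PBS and at 6.97, 7.78, 7.98, 10.7 and 10.9 CPM under cetuximab. HOXA10 was at 34.2, 36.4, 40.2, 42.3 and 38.2 CPM under PBS and at 29.0, 31.1, 25.7, 24.4 and 26.2 CPM under cetuximab. None of the 3 overlapped between treatments in these libraries, and the log2 changes were 0.99 ± 0.20, adjusted p = 0.00359 for HOXC4, 0.92 ± 0.18, adjusted p = 0.00259 for HOXC13 and -0.51 ± 0.10, adjusted p = 0.00322 for HOXA10. As in SCC1, the 3 genes were named for called changes, and non-overlap was not counted over all genes. The PBS library of day 0, outside this test, held 7.11 CPM of HOXC13, above the 6.97 CPM of cetuximab library 2a.

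HOXA13 went from 0.898 ± 0.191 to 1.66 ± 0.467 CPM in SCC6 (0.87 ± 0.24, adjusted p = 0.0166), HOXC11 from 1.55 ± 0.218 to 2.56 ± 0.840 CPM (0.71 ± 0.23, adjusted p = 0.0333) and HOXC10 from 1.51 ± 0.246 to 2.24 ± 0.263 CPM (0.55 ± 0.17, adjusted p = 0.0274). HOXA5 was at 1.81, 1.87, 2.70, 3.35 and 5.20 CPM under PBS and at 1.46, 1.48, 1.77, 2.19 and 1.95 CPM under cetuximab (-0.76 ± 0.28, adjusted p = 0.0579). Cetuximab libraries 2a, 2b and 3 of SCC6 shared a flow cell with the PBS libraries of days 2 to 5. Cetuximab libraries 4 and 5 lay on a flow cell without PBS libraries. The PBS library of day 1 lay on one without SCC6 cetuximab libraries. With flow cell as a covariate, a fit that rests on the shared flow cell, 4 members passed (all genes: 30.7%). These were HOXC4, HOXC13, HOXA10 and HOXA5 (-1.07 ± 0.29, adjusted p = 0.0145).

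In SCC25, 1 of 34 members tested changed, HOXD10, where 18.2% of all genes changed and 8.72% rose. A total of 8 members had an unadjusted p under 0.05, and DESeq2 called 3 (all genes: 22.3%). HOXD10 was at 47.2, 46.7, 45.5, 44.5 and 46.0 CPM under PBS and at 53.5, 54.5, 50.5, 57.0 and 57.5 CPM under cetuximab. These did not overlap (0.24 ± 0.05, adjusted p = 0.00801). Cetuximab libraries of days 1 and 2 shared a flow cell with the SCC25 PBS libraries. Those of days 3 to 5 lay on a flow cell without SCC25 PBS libraries. With flow cell as a covariate HOXD10 did not pass (0.23 ± 0.07, adjusted p = 0.0563), and HOXA13, HOXD8 and HOXD11 did (all genes: 7.55%). With day as a block 6 members passed, where 26.8% of all genes did, HOXD10, HOXA5, HOXA13, HOXD8 and HOXD9 upward and HOXD13 downward (-0.41 ± 0.12, adjusted p = 0.0361). Without the cetuximab library of day 3, 4 members passed, and 2 passed without the PBS library of day 4 or of day 5 or the cetuximab library of day 5. The shares of all genes in these refits are not given here, so the counts show only how the number of members moved.

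**Figure D5:**
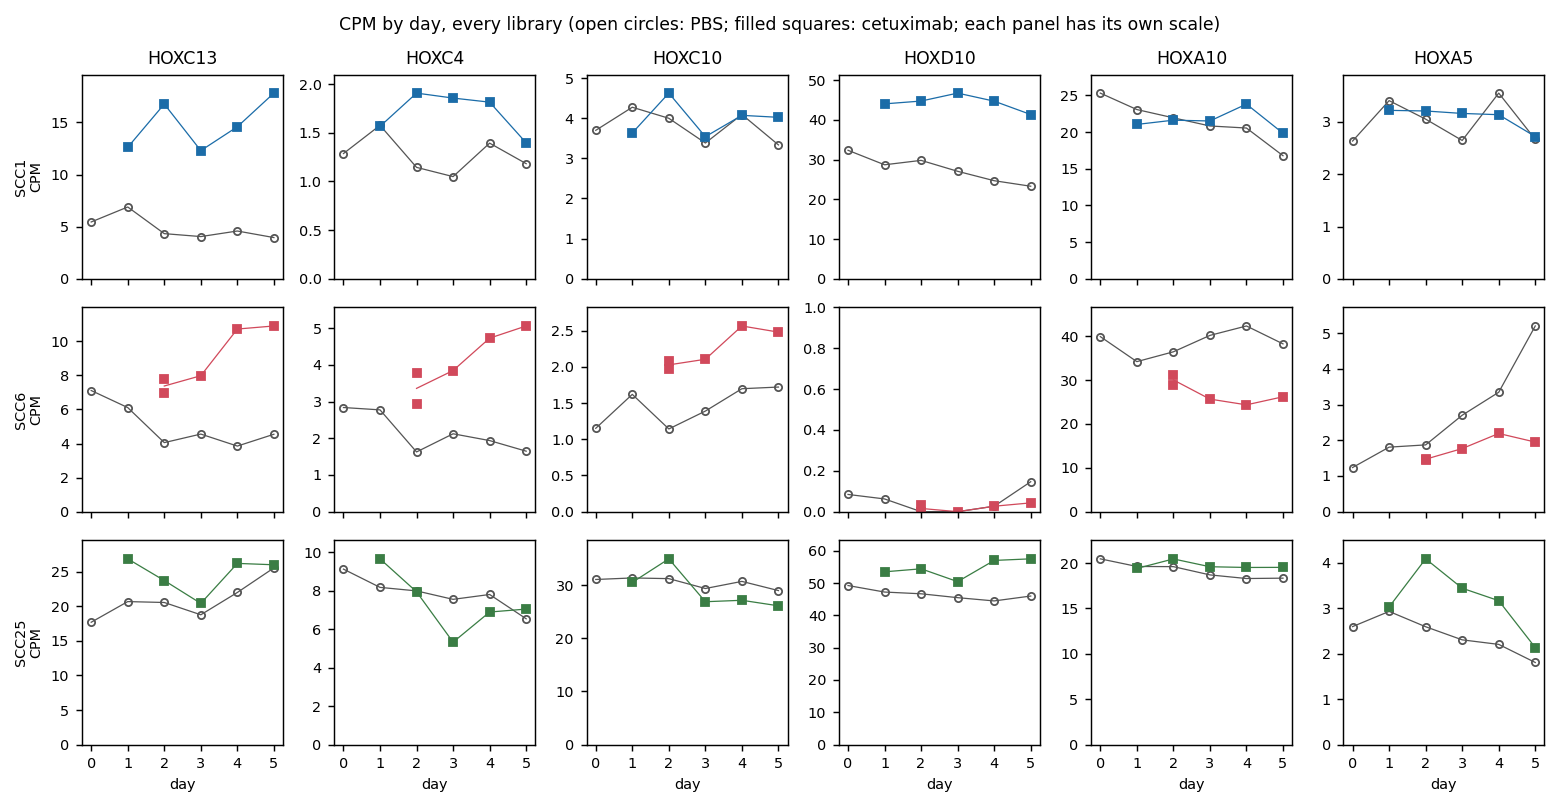
CPM by day of 6 HOX genes (columns) in the 3 lines (rows); open circles are PBS and filled squares cetuximab libraries, lines join the mean of each day and each panel has its own scale. HOXC13 is higher under cetuximab than under PBS of days 1 to 5 in every SCC1 and SCC6 library.

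Of the 10 members that rose in SCC1 and the 5 that rose in SCC6, 4 were shared (HOXA13, HOXC4, HOXC11 and HOXC13), and none of those that fell was. HOXD10 rose in SCC1 and SCC25, 0 members were called in all lines, and 0 were called in opposite directions. The matching overlaps over all genes were not counted. With flow cell as a covariate HOXA13 passed in neither SCC1 (adjusted p = 0.377) nor SCC6 (adjusted p = 0.0847). In that fit HOXC4 was lost in SCC1 (adjusted p = 0.198) and HOXC11 in SCC6 (adjusted p = 0.133), while HOXC13 passed in both lines. Whether the change differed between lines was tested over 30 libraries, and 11 of 36 members passed, where 26.0% of all genes did. The log2 changes in SCC1, SCC6 and SCC25 were 1.64, 0.94 and 0.20 for HOXC13 (adjusted p = 3.01e-05), 0.06, -0.49 and 0.06 for HOXA10 (adjusted p = 0.000303) and 0.43, 1.01 and -0.04 for HOXC4 (adjusted p = 0.00293). They were 0.06, 0.57 and -0.06 for HOXC10 (adjusted p = 0.0091) and 0.01, -0.74 and 0.42 for HOXA5 (adjusted p = 0.0121). HOXC11 passed too (0.69, 0.74 and -0.06, adjusted p = 0.022). The remaining 5, HOXB2, HOXB3, HOXB8, HOXD9 and HOXD10, held only 0 to 31 counts each in the 5 cetuximab libraries of SCC6, so a change there was not measurable at this depth. With day as a block, the changes in SCC1 and SCC25 were 0.744 and 0.241 for HOXD10 and 1.013 and 0.257 for HOXD9. They were 0.492 and -0.195 for HOXB3 and -0.408 and 0.455 for HOXB8. HOXD10 kept its interaction call in all 37 settings other than a log2 change of at least 1, flow cell among them. In the fit with flow cell 5 members passed (all genes: 14.2%), and the calls of HOXC4 (adjusted p = 0.067), HOXC10 (adjusted p = 0.361), HOXC11 (adjusted p = 0.202), HOXB2, HOXB3, HOXB8 and HOXD9 were lost.

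Levels were also set against day under PBS. In SCC1 days 0 to 4 lay on one flow cell and day 5 on another, and in SCC6 days 0 and 1 lay on one and days 2 to 5 on another, so that time ran with flow cell in both, while all 6 SCC25 libraries shared a flow cell. The slope over days 0 to 5 under PBS passed for 2 of 31 members in SCC1 (all genes: 3.95%), both downward (all genes: 1.35%). In SCC6 it passed for 10 of 18 (all genes: 38.3%), 5 upward and 5 downward (all genes: 16.5% and 21.8%). In SCC25 it passed for 8 of 33 (all genes: 13.7%), 1 upward and 7 downward (all genes: 8.79% and 4.90%). When flow cell was a covariate, an alternative chosen after the data were seen, 0 members passed in SCC1 (all genes: 11.4%) and 3 in SCC6 (all genes: 5.44%).

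HOXA11 had a falling slope that passed in each line. From day 0 to day 5 it was at 5.60, 5.26, 4.47, 4.18, 3.66 and 2.65 CPM in SCC1, at 5.34, 4.86, 4.61, 3.47, 3.90 and 2.23 CPM in SCC6 and at 11.3, 9.68, 9.72, 8.92, 7.25 and 8.22 CPM in SCC25. The log2 slopes per day were -0.20 ± 0.04, adjusted p = 0.0349 in SCC1, -0.22 ± 0.06, adjusted p = 0.0151 in SCC6 and -0.10 ± 0.03, adjusted p = 0.032 in SCC25. In the fit with flow cell the slope of HOXA11 did not pass in SCC1 (-0.16, adjusted p = 0.0528) or SCC6 (-0.26, adjusted p = 0.131). Its call was also lost without day 0 or day 5 in SCC6 and without day 0, 1 or 4 in SCC25. The SCC1 calls rest on all 6 libraries, since leaving out any 1 left 0 or 1 member called.

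HOXA2, HOXA3, HOXA4 and HOXA5 rose over the days in SCC6. HOXA3 was at 7.03, 8.73, 6.65, 10.1, 14.8 and 19.3 CPM and HOXA5 at 1.24, 1.81, 1.87, 2.70, 3.35 and 5.20 CPM from day 0 to day 5. The log2 slopes per day were 0.28 ± 0.06, adjusted p = 0.00617 for HOXA3 and 0.38 ± 0.05, adjusted p = 0.0017 for HOXA5. HOTAIRM1 rose as well (0.21 ± 0.04, adjusted p = 0.00348). The slopes of HOXA2 (0.62, adjusted p = 0.0065), HOXA3 (0.50, adjusted p = 0.000787) and HOXA5 (0.48, adjusted p = 0.00968) passed with flow cell as a covariate, and that of HOXA4 did not (0.18, adjusted p = 0.273). Downward were HOXA7 (-0.24 ± 0.04, adjusted p = 0.00426), HOXA11, HOXC6, HOXC9 and HOXC13, none of which passed in that fit. Leaving out the library of day 0, 1 or 5 left 5 of the 10 calls in number, and leaving out day 4 left 6. In SCC25, 3 remained in number without day 0 or day 5, 4 without day 1 and 5 without day 4. Shares of all genes are not given here for the refits that leave out a day.

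HOXC13-AS, the antisense RNA of HOXC13, rose under cetuximab in SCC1 (2.27 ± 0.22, adjusted p = 8.07e-06) and SCC6 (1.22 ± 0.18, adjusted p = 0.000614). The kit keeps strand, but the use of strand in counting is not given in the sources used here, so reads of HOXC13 and its antisense RNA may not be fully separated. In all, 5 of 13 (3 higher and 2 lower) of the cluster noncoding RNAs changed in SCC1, 2 of 8 (1 higher and 1 lower) in SCC6 and 1 of 15 (1 higher and 0 lower) in SCC25, where 44.5%, 30.1% and 18.2% of all genes did. Of the flanking genes, 4 of 8 (2 higher and 2 lower), 2 of 8 (0 higher and 2 lower) and 1 of 8 (1 higher and 0 lower) changed in the same lines.

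The shares of all genes called, 44.5% in SCC1, 30.1% in SCC6 and 18.2% in SCC25, stand beside each of the next counts. Of the cofactors, 2 of 6 (1 higher and 1 lower) changed in SCC1, 2 of 7 (2 higher and 0 lower) in SCC6 and 2 of 8 (1 higher and 1 lower) in SCC25. MEIS1 rose in SCC1 and SCC25 (0.56 ± 0.13 and 0.26 ± 0.08) and PBX3 fell in both (-0.69 ± 0.07 and -0.49 ± 0.07). Of the Polycomb genes, 12 of 19 (4 higher and 8 lower), 5 of 19 (2 higher and 3 lower) and 4 of 19 (0 higher and 4 lower) changed in SCC1, SCC6 and SCC25, with EZH2 at -0.60 ± 0.10, adjusted p = 0.000279 in SCC1. Of the Trithorax and demethylase genes, 6 of 12 (2 higher and 4 lower), 4 of 12 (3 higher and 1 lower) and 2 of 12 (1 higher and 1 lower) changed, and KDM6A, an H3K27 demethylase gene, rose in all lines (0.55 ± 0.11, 0.93 ± 0.14 and 0.25 ± 0.06). Of the retinoic acid receptor and CDX genes, 4 of 5 (4 higher and 0 lower), 3 of 6 (3 higher and 0 lower) and 2 of 8 (1 higher and 1 lower) changed.

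Summed marker levels differed between treatments in the same libraries. The summed CPM of 12 fibroblast markers ran from 51.5 to 72.9 under PBS and from 96.4 to 221 under cetuximab in SCC1, from 3.44 to 6.86 and 10.1 to 116 in SCC6, and from 188 to 236 and 302 to 464 in SCC25. Under cetuximab 3 of the 12 averaged 1 CPM or more in SCC1, 3 in SCC6 and 8 in SCC25, and PRRX1 averaged under 0.1 CPM in every group. The endothelial and blood sum ran from 18.03 to 49.2 under PBS and 7.35 to 10.8 under cetuximab in SCC1, from 16.8 to 32.3 and 4.97 to 8.13 in SCC6, and from 167 to 234 and 147 to 177 in SCC25. The sum of 12 squamous epithelial markers ran from 4395 to 5487 under PBS and 9109 to 15070 under cetuximab in SCC1, from 4433 to 10120 and 5297 to 6381 in SCC6, and from 15170 to 22240 and 17840 to 21460 in SCC25. The fibroblast sums were higher under cetuximab without overlap in all lines, the endothelial and blood sums lower without overlap in SCC1 and SCC6, and the squamous sums higher without overlap in SCC1. Their part in the HOX changes was not tested.

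The gene models of 22 members overlap another member on the same strand, among them HOXA9 with HOXA10, HOXB3 with HOXB4 to HOXB6, HOXC4 with HOXC5 and HOXC6, and HOXD10 with HOXD11. How reads were shared between overlapping members is uncertain.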

How the data were processed

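Polyadenylated RNA was sequenced in 33 libraries with a stranded kit. The authors quantified transcripts with Salmon 0.8.2 on hg19 (GRCh37) and deposited estimated counts per gene symbol, which were rounded to whole numbers here before testing; the annotation used is not given in the sources used here. Counts were scaled by TMM and expressed as CPM, with the library totals and their precision as given above. Genes with low counts were removed by filterByExpr, and line pairs (18 PBS libraries), treatment within each line (days 1 to 5), the line-by-treatment interaction (30 libraries) and the slope over days under PBS were fitted across all genes with the quasi-likelihood test of edgeR 4.0.16 (robust) in R 4.3.3, with Benjamini-Hochberg adjustment and a threshold of 0.05. The fits were tested on simulated data. The members and gene lists were chosen with earlier results of these data known. One HOX gene that the name rule finds and one cofactor stayed in the fits but are not reported here, and no count, sum or figure of the members or lists holds them. Members were named by rule: the 2 highest per cluster, the 8 largest called line differences, and called treatment and interaction members up to 12 and 8. Values of every library are given for some of these, and ranges, counts or means with SD for the rest. Other members are given by range, count, mean or change, and from the other lists the largest called values or those a statement needed. The HOX loci come from GENCODE on GRCh37 and the promoter windows from RefSeq on GRCh38.p14. Day was shared by label between treated and control libraries. The correlation of same-day deviations was 0.083 to 0.271 in SCC1, 0.170 to 0.357 in SCC25 and -0.103 to 0.399 in SCC6, where library 2a against PBS day 1, the pair that the day block uses, gave -0.345. Pairs of unlike days ran from -0.22 to 0.204 in SCC1, from -0.352 to 0.406 in SCC25 and from -0.502 to 0.601 in SCC6. The highest values of SCC25 and SCC6 thus came from unlike days. Alternatives were DESeq2 1.42.0, other scalings, no filter, flow cell, the day block, a log2 change of at least 1 and leaving out each library.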

Additional observations from a re-analysis of the deposited data

Results flagged for a closer look

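In 5 of 127 groups of libraries of 1 member, a single library stood far from the others of its group, by the ratio of its gap to the whole range. Chance alone gives such ratios in a small share of groups, and the threshold used is one that about 5% of groups pass. HOXA2 was highest in SCC6 cetuximab day 5, at 3.50 CPM against 2.47 to 2.71 CPM in the others (gap over range 0.767). HOXA3 was lowest in SCC25 cetuximab day 3, at 2.09 CPM against 3.88 to 4.56 CPM in the others (gap over range 0.724). HOXA5 was lowest in SCC1 cetuximab day 5, at 2.72 CPM against 3.14 to 3.22 CPM in the others (gap over range 0.834). HOXA7 was lowest in SCC1 PBS day 5, at 6.54 CPM against 11.2 to 13.8 CPM in the others (gap over range 0.643). HOXA10 was highest in SCC25 cetuximab day 2, at 20.5 CPM against 19.4 to 19.6 CPM in the others (gap over range 0.819).

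The change under cetuximab differed between lines for 11 members in the interaction test of edgeR. The adjusted p was 3.01e-05 for HOXC13, 0.000303 for HOXA10, 0.00293 for HOXC4, 0.0091 for HOXC10, 0.0121 for HOXA5, 0.0149 for HOXB3, 0.0181 for HOXD10, 0.0202 for HOXB2, 0.0207 for HOXB8, 0.022 for HOXC11 and 0.0246 for HOXD9. For HOXB2, HOXB3, HOXB8, HOXD9 and HOXD10 the SCC6 libraries held few counts or none.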

How the results depend on the processing

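Of 79 counts of HOX calls under alternatives that kept all libraries, 62 stayed within 1.5 times the value given above, and so did 114 of 132 counts with 1 library left out. Of 3213 settings of 132 single-member calls, 2982 kept the call, 223 lost it in the same direction and 8 reversed. Most of these settings leave out 1 library. Counted by call, 74 of the 132 were kept under every setting other than a log2 change of at least 1. Requiring a log2 change of at least 1 left 16 members in SCC1 against SCC25 (all genes: 31.8%) and 7 in the interaction (all genes: 12.3%). Under cetuximab it left 2 in SCC1 (all genes: 8.7%), 0 in SCC6 (9.69%) and 0 in SCC25 (1.56%). With flow cell as a covariate, cetuximab called 7 in SCC1 (all genes: 23.2%), 3 in SCC25 (7.55%) and 5 in the interaction (14.2%). The slope with flow cell, chosen after seeing the data, called 0 in SCC1 (all genes: 11.4%) and 3 in SCC6 (5.44%). For cetuximab in SCC25, DESeq2 called 3 (all genes: 22.3%), library totals 2 (18.2%), the day block 6 (26.8%) and day 0 added to PBS 2 (18.1%). Library totals moved the median log2 value of all genes to 0.217 in SCC1 against SCC6 (23 members called, 17 higher and 6 lower) and -0.148 in SCC6 against SCC25 (31 called). For these line pairs the share of all genes called with library totals is not given here. The SCC1 slope gave 5 with DESeq2 (all genes: 9.22%), 4 with library totals (3.68%) and 1 with no filter (2.46%).

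Leaving out 1 library gave 21 to 24 members in SCC1 against SCC6, 23 to 26 in SCC1 against SCC25, 31 to 32 in SCC6 against SCC25, 12 to 17, 4 to 7 and 1 to 4 under cetuximab in SCC1, SCC6 and SCC25, 10 to 15 in the interaction, and 0 to 1, 5 to 11 and 3 to 8 for the slopes in SCC1, SCC6 and SCC25. The matching shares of all genes are not given here, so these ranges show only how the number of members moved. With flow cell as a covariate the log2 value reversed for HOXC11 (-0.115) and HOXC5 (-1.532) in SCC1 against SCC6, HOXC5 (0.637) in SCC1 against SCC25, HOXA11 (0.365), HOXB7 (0.077) and HOXC5 (2.17) in SCC6 against SCC25, and HOXA11 under cetuximab in SCC1 (0.092). HOXA2 in SCC1 against SCC25 reversed with cetuximab libraries in place of PBS (-0.025). The cause was not tested. With day as a replicate block, cetuximab called 16 members in SCC1 (all genes: 47.1%) and 6 in SCC25 (all genes: 26.8%). In SCC6, with 2a paired with day 1, it called 7, where 4710 of 17387 genes passed. There HOXA5 was gained (-0.69 ± 0.20, adjusted p = 0.0407). The GC correction was not run in SCC25, where fewer than 80% of genes had a GC value. Members at or under 3 counts in a group could not be compared beyond the limits given.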
